A study of Gossypium hirsutum with 9 samples.

Results

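Upland cotton (Gossypium hirsutum) is an allotetraploid: its nucleus holds an A and a D subgenome, and most genes have a partner copy, the homoeolog, on the other subgenome. Chromosome D02 belongs to the D subgenome. In the A subgenome of cultivated tetraploid cotton, segments were exchanged between chromosomes A02 and A03 by a reciprocal translocation, so the partners of D02 genes are spread over both A chromosomes. Partner copies were not matched here. A02 and A03 are compared as whole chromosomes, including genes whose partner is not on D02. A cotton fibre is one very long cell that arises from the epidermis of the ovule. For cultured ovules, glucose is both a carbon source and a solute that adds to the osmotic strength of the medium.

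The genes described here are those whose ID starts with Gohir.D02G and whose abundance reached 1 FPKM in at least 3 of the 9 libraries, where FPKM is a read count divided by gene length in kilobases and by a library-size term. Of 2829 D02 IDs, 1738 passed and are called members, 1091 stayed below the filter, and 491 of these were at 0 in every library. The same filter left 1292 of 2006 genes on A02, 1589 of 2431 on A03 and 50988 of all 80970 rows. The values closest to the limit were an FPKM of 1.007 in the library that decided it for Gohir.D02G199600.v2.1 (inside) and of 0.9993 for Gohir.D02G127000.v2.1 (outside). Of the members, 17 passed only because of 1 glucose group. Such a gene had to differ between groups, and 4 of the 17 were called in the comparison of 300 with 150 mM. Over all genes tested, 57 of 431 such genes were called, with 2 of 10 on A02 and 0 of 13 on A03.

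Ovules of the cotton strain TM-1 were kept on medium with 50, 150 or 300 mM glucose for 5 days, and total RNA of whole ovules was sequenced in 3 libraries per concentration. The labels name no other allele or agent, and no sample with an osmotic control is among the 9, so glucose as a sugar and glucose as an osmotic agent cannot be told apart. Separate cultures for the libraries of one concentration are not mentioned by the labels. A p-value here therefore measures the spread among sequenced libraries, and that spread may be technical. The RNA came from whole ovules, and in such bulk samples fewer cells of a type and less RNA per cell cannot be told apart. The labels give no fibre or ovule stage, and the IDs could not be paired with gene names (0 of 80970 matched the RefSeq table), so tissue markers were not checked and no gene is given a role.

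The FPKM values held whole reads that could be recovered, and the 9 libraries totalled between 17803779 and 19140297 reads. A gene of 1 kilobase gained between 0.05 and 0.0545 FPKM from 1 read. D02 members had a median of 8.41 FPKM, a median coding length of 1074 bases and a median of 173.8 reads per library, beside 7.62 FPKM, 1068 bases and 159.6 reads over all genes tested. The members of A02 and A03 had medians of 8.91 and 9.38 FPKM. Counting error weighs most on the 606 D02 members (34.9%) that averaged under 100 reads.

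The first library at 300 mM (ordinals give the replicate number of the labels) lay nearer to the 150 mM libraries than the others of its group did. Over D02 members its log2 values correlated at 0.953 and 0.934 with the other 300 mM libraries, and at 0.944, 0.913 and 0.952 with those at 150 mM. These correlations are across genes, which are not independent replicates. Counts on D02 are therefore also given without this library.

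From 150 to 300 mM glucose, 152 of the 1738 D02 members (8.75%) changed with limma at an adjusted p below 0.05. Over all genes tested, 6.11% did. Falls outnumbered rises: 111 D02 members (6.39%) fell, beside a background of 4.80%, and 41 (2.36%) rose, beside 1.31%. On A02, 75 members (5.80%) fell and 15 (1.16%) rose. On A03, 92 (5.79%) fell and 20 (1.26%) rose. Without the first 300 mM library, 184 D02 members (10.6%) were called, 126 lower and 58 higher, and the background was 8.62%.

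**Figure D1:**
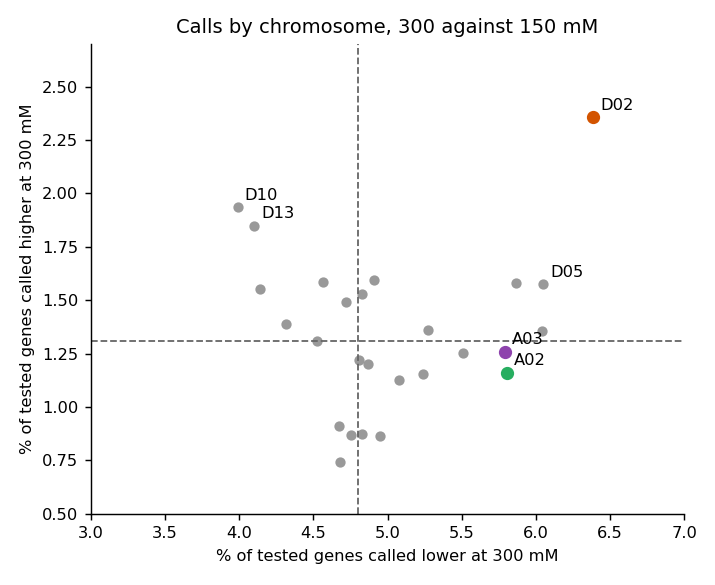
Share of the tested genes of each chromosome that were lower (horizontal axis, percent) or higher (vertical axis, percent) at 300 than at 150 mM glucose; each point is 1 of 26 chromosomes, called by limma at an adjusted p below 0.05. D02 lies at 6.39% lower and 2.36% higher, and the other 25 chromosomes lie between 3.99 and 6.05% lower and between 0.744 and 1.94% higher.

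Among the 26 chromosomes, D02 had the highest share of called genes, the highest share of falls and the highest share of rises. The other 25 ranged from 5.42 to 7.63% called, with a median of 6.15% and D05 as the nearest. A03 was in place 5 and A02 in place 6. Genes of one chromosome are not independent of each other, and no test of the difference between chromosomes was made. The D02 members were chosen with earlier results of these data known, so the place of D02 is a description only. D02 was in place 3 without the first 300 mM library (10.6 against 8.62% of all genes), and in place 2 without the third 150 mM library (5.47 against 4.17%), where A03 was above it with 5.92%. It was also in place 2 with limma-voom on the recovered reads (8.06 against 6.20%). With the other 18 alternative settings it was in place 1. The place for rises was lower in 8 of the 21 alternatives, down to place 5 without the third 150 mM library and place 4 without the third 300 mM library. The place for falls was lower in 3, down to place 4 with limma-voom.

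**Figure D2:**
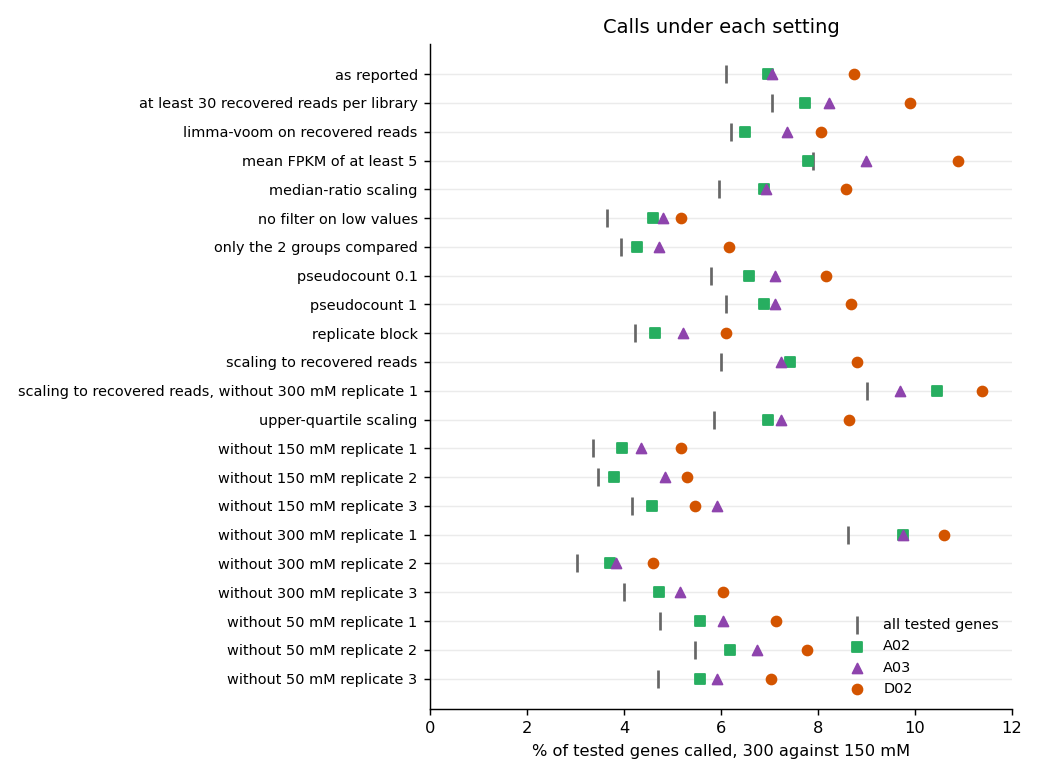
Percent of tested genes called between 300 and 150 mM glucose (horizontal axis) for all genes, A02, A03 and D02 under each processing setting (vertical axis). The D02 share lies above that of all genes in every setting shown, from 4.60 against 3.03% without 300 mM replicate 2 to 11.4 against 9.01% with scaling to recovered reads and without 300 mM replicate 1.

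The typical D02 member differed little between these concentrations. The median log2 difference (300 minus 150 mM) over all 1738 members was 0.0033, with quartiles at -0.20 and 0.18, beside -0.0045 over all genes tested. The medians were -0.0007 on A02 and -0.011 on A03. Among the called genes the falls were larger than the rises: the median was -1.43 for the 111 D02 falls and 1.18 for the 41 rises. The corresponding medians were -1.20 and 0.91 on A02, -1.24 and 1.26 on A03, and -1.17 and 0.99 over all genes. Falls of at least 2-fold numbered 75 on D02 (4.32%, background 2.99%) and rises of at least 2-fold 25 (1.44%, background 0.647%).

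Every 300 mM library lay on one side of every 150 mM library for 422 D02 members (24.3%), 281 A02 members (21.8%) and 388 A03 members (24.4%), beside 23.0% of all genes. By this measure, which takes no account of the size of the gap, the 3 chromosomes were near the background.

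The share of rises among D02 calls depended on the scaling and on single libraries. With the deposited scaling, 27% of the D02 calls were rises, against 16.7% on A02, 17.9% on A03 and 21.5% over all genes. With scaling to recovered reads, 55 members were higher and 98 lower (35.9% rises, against 32.3% on A02, 28.7% on A03 and 34.8% over all genes). Without the first 300 mM library as well, 83 were higher and 115 lower, and the share on D02 (41.9%) was below those on A02 (43.7%) and over all genes (44.1%), with 38.3% on A03. Without the second 300 mM library, D02 had 11 rises and 69 falls, without the third 15 and 90, and without the first 150 mM library 13 and 77. In that order, rises were 13.75, 14.3 and 14.4% of the D02 calls, against 12.99, 16.1 and 13.8% over all genes. With the deposited scaling, too, the D02 share was thus not above that of all genes in every fit. The scaling to recovered reads moved the median of all genes by 0.08 on the log2 scale. No D02 call changed its direction in any setting.

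Depth touched the rises more than the falls. Of the 41 rises, 21 averaged under 100 reads per library, and of the 111 falls, 21 did. The median coding length was 747 bases for the rises and 1020 for the falls, against 1098 for D02 members that were not called. Data were also simulated from the gene means of these libraries for the same comparison. The spread was set alike for every gene and library, and 200 genes above a minimum of reads were changed. The resulting rates need not hold for the real libraries. In the simulated data, 67% of genes changed 2-fold and 100% of those changed 4-fold were recovered. Of 193 calls, 26 were false (13.5%), all among genes under 100 reads. With a minimum mean of 30 reads per library, chosen after seeing this, 38 D02 members were higher and 112 lower. Together these were 9.89% of the D02 genes kept, against 7.05% of all genes kept. Only 6 of the 41 rises and 3 of the 111 falls averaged under 30 reads. Most called members under 100 reads thus lay above this minimum.

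The members were then taken in the order of their ID numbers, in 17 blocks of 100 and a last one of 38. The ID number was used as the order along the chromosome, and no coordinates were used. The number called between 150 and 300 mM ran from 3 to 15 in a block of 100. The first 4 blocks held 4, 8, 14 and 5 called members, of which 2, 4, 8 and 3 rose. Blocks 5 to 8 held 8, 13, 7 and 3, of which 1, 3, 1 and 0 rose. Rises and falls were thus about equal in number in the first 4 blocks, and falls prevailed in the next 4.

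Blocks 9 to 13 held 7, 4, 8, 15 and 8 called members, of which 2, 1, 1, 4 and 0 rose. Blocks 14 to 17 held 14, 15, 7 and 8, of which 1, 4, 3 and 3 rose. All 4 called members of the short block 18 fell. With the deposited scaling and all libraries, falls outnumbered rises in each block from the fifth on. In block 16 this turned to 6 higher and 4 lower with scaling to recovered reads, and to 5 and 4 with upper-quartile scaling, and it was 4 and 4 with median-ratio scaling. In block 17 it was 5 and 5 without the first 300 mM library, 3 and 3 without the second 150 mM library, and 9 and 5 with scaling to recovered reads and without the first 300 mM library. Blocks 9 and 10 had equal numbers in that last setting, and block 9 also without the third 150 mM or the third 300 mM library.

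**Figure D3:**
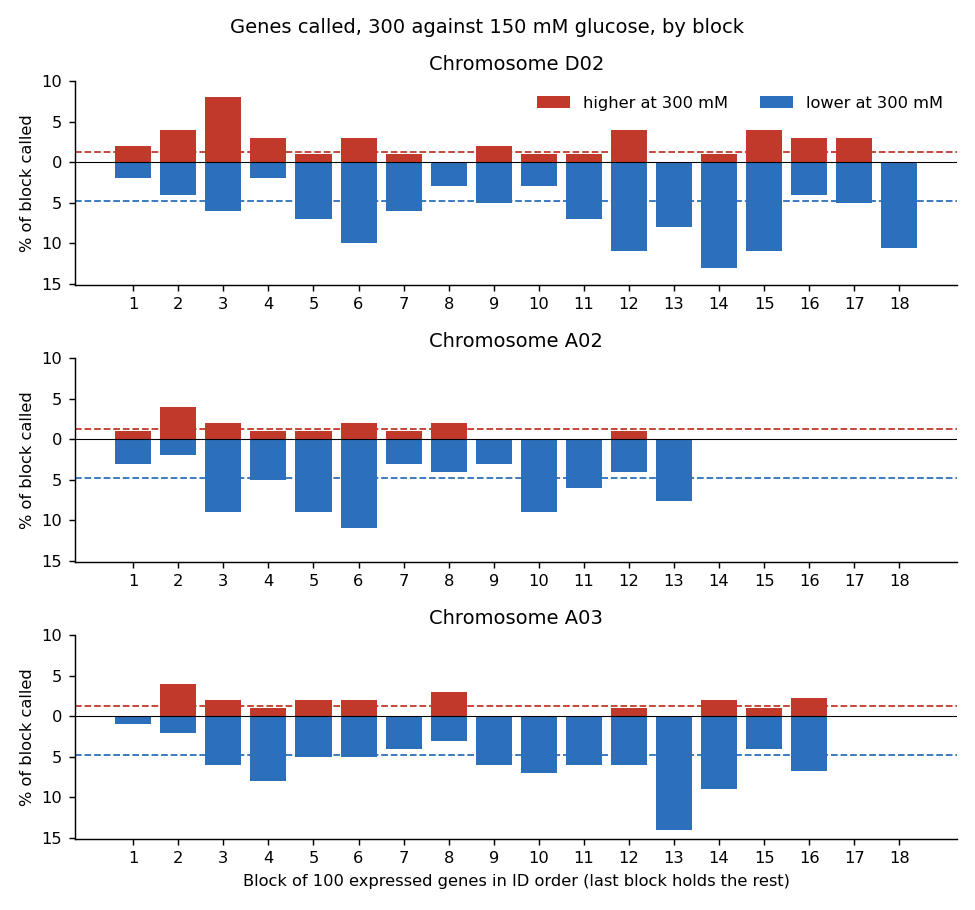
Percent of members called higher (upward bars) or lower (downward bars) at 300 than at 150 mM glucose in successive blocks of 100 expressed genes in ID order, for D02, A02 and A03; dashed lines mark the shares over all genes, 1.31% higher and 4.80% lower. On D02, block 3 has 8 higher and 6 lower genes, block 13 has 8 lower and no higher gene, and block 14 has 13 lower and 1 higher.

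The 5 blocks with the most calls were chosen after their values were seen and carry no test. They were block 3 (Gohir.D02G034200.v2.1 to Gohir.D02G047800.v2.1), block 6 (Gohir.D02G078566.v2.1 to Gohir.D02G091800.v2.1) and block 12 (Gohir.D02G156600.v2.1 to Gohir.D02G170400.v2.1), with block 14 (Gohir.D02G182200.v2.1 to Gohir.D02G195700.v2.1) and the adjoining block 15 (Gohir.D02G195800.v2.1 to Gohir.D02G206884.v2.1). Together they held 71 of the 152 calls in 500 members (14.2%). The other 13 blocks held 81 in 1238 members (6.54%). Taking out the fullest blocks lowers the share of the rest by construction, so the latter is not set against the background.

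Blocks with many calls also occurred on the comparison chromosomes. On A02 a block of 100 held 3 to 13 called genes, with the most in block 6 (2 higher and 11 lower). On A03 the most were in block 13, with 14 lower and none higher. The highest block count on D02 was 15, but it ranged from 9 to 20 when 1 library was left out, and was 9 without the first or second 150 mM library or the second 300 mM library. Block 3 ranged from 5 to 17 called members in these fits, block 12 from 6 to 15 and block 15 from 7 to 20.

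No block moved as a whole. The median log2 difference of a D02 block lay between -0.08 (block 15) and 0.11 (block 2). On A02 the block medians lay between -0.06 and 0.06, and on A03 between -0.07 and 0.05. The response along D02 thus consisted of called genes within blocks whose typical gene was close to 0. Of the 152 called, 75 falls and 25 rises were at least 2-fold, and 28 stood in runs of neighbours.

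**Figure D4:**
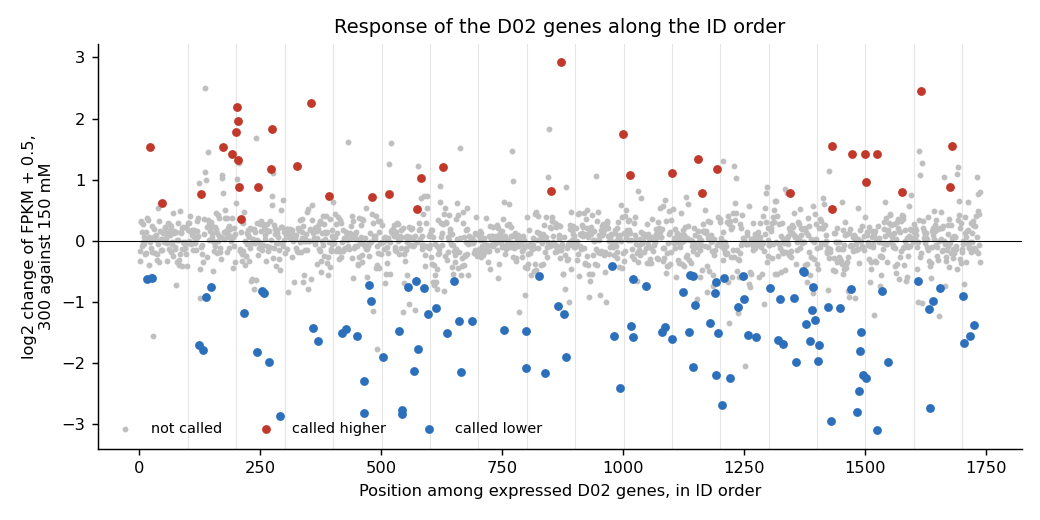
log2 difference between 300 and 150 mM glucose (vertical axis) of the 1738 expressed D02 genes against their position in ID order (horizontal axis); coloured points are the 41 genes called higher and the 111 called lower, grey points the rest. Rises are most frequent among the first 400 genes, which hold 17 of the 41, and falls are most frequent after them, with 97 of the 111.

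Calls in the first 400 members were set beside those in the later 1338, a split made after the blocks were seen and not tested. In the first 400, 17 rose (4.25%) and 14 fell (3.5%), and the median difference was 0.06. In the later 1338, 24 rose (1.79%) and 97 fell (7.25%), with a median of -0.02. The shares of rises and falls shifted the same way on the comparison chromosomes, on few rises. On A02 rises went from 2.0% (8 genes) to 0.785% (7 genes) and falls from 4.75 to 6.28%. On A03 rises went from 1.75% (7 genes) to 1.09% (13 genes) and falls from 4.25 to 6.31%. The median went from 0.012 to -0.006 on A02, but from -0.020 to -0.006 on A03. The balance at the start of D02 rested in part on single libraries. Without the third 300 mM library it was 5 rises and 13 falls, without the second 5 and 10, and without the first 23 and 15.

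Called genes lay next to each other on D02 about as often as on other chromosomes. Of the 152 calls, 28 (18.4%) stood in 13 runs of at least 2 neighbouring members called in the same direction, 3 runs of rises and 10 of falls. The share was 18.9% on A02, 17.0% on A03 and 14.8% over the 26 chromosomes, with a range of 6.38 to 21.2%, and D02 was in place 7. Only 2 runs held 3 genes.

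Some of these neighbours were of nearly equal length. Of 15 neighbouring D02 pairs called in the same direction, 5 had coding lengths within 2% of each other, against 71 of all 1737 neighbouring pairs (4.09%). On A02 1 of 9 such called pairs and on A03 1 of 10 did. The labels do not state how reads shared between near-identical copies were counted, so the separate values of such neighbours are uncertain. Called pairs with the same lengths and direction also stood on A03 and A02. Gohir.A03G145700.v2.1 and Gohir.A03G145800.v2.1 (log2 -1.685 and -0.62) matched Gohir.D02G169100.v2.1 and Gohir.D02G169200.v2.1 in length. Gohir.A03G203900.v2.1 and Gohir.A03G204000.v2.1 (-1.33 and -2.71) matched Gohir.D02G225200.v2.1 and Gohir.D02G225300.v2.1. On A02, Gohir.A02G026900.v2.1 and Gohir.A02G027000.v2.1 rose with 672 bases each, like D02 neighbours. Read sharing between them was not tested.

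The 10 largest falls by log2(FPKM + 0.5) are given first. Gohir.D02G199800.v2.1 in block 15 measured 94.3, 52.4 and 101.3 FPKM at 50 mM, 161.3, 231.7 and 175.7 at 150 mM and 40.6, 19.7 and 17.2 at 300 mM. Each 300 mM library was below each of the others. The log2 difference between 300 and 150 mM was -2.94 ± 0.34 (SE, limma adjusted p = 0.00236), and the rise from 50 to 150 mM was also called (1.23, adjusted p = 0.0227).

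Gohir.D02G083700.v2.1 and Gohir.D02G083800.v2.1 are neighbours in block 6, with coding lengths of 954 and 945 bases. The former had 45.9, 37.3 and 62.1 FPKM at 50 mM, 98.8, 179.1 and 92.2 at 150 mM and 24.1, 12.4 and 15.96 at 300 mM. The latter had 25.8, 16.9 and 34.8 at 50 mM, 76.7, 101.2 and 76.2 at 150 mM and 20.5, 8.17 and 8.80 at 300 mM. Both genes were highest in the 3 libraries at 150 mM, with no overlap with either other group. The log2 differences from 150 to 300 mM were -2.77 ± 0.31 (limma adjusted p = 0.00226) and -2.82 ± 0.35 (adjusted p = 0.00288).

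Gohir.D02G046750.v2.1 in block 3 did not share the rise at 150 mM. It measured 14.4, 5.27 and 9.44 FPKM at 50 mM, 10.3, 9.37 and 11.2 at 150 mM and 1.56, 0.969 and 0.558 at 300 mM. The 50 and 150 mM libraries overlapped, and the 300 mM libraries, with 10 to 28 reads each, were below all of them. The log2 difference from 150 to 300 mM was -2.87 ± 0.33 (limma adjusted p = 0.00236).

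Gohir.D02G210000.v2.1 in block 16 had the largest fitted fall of the chromosome, -3.10 ± 0.50 (limma adjusted p = 0.00792). Its 150 mM libraries were uneven, at 11.1, 35.0 and 14.0 FPKM, and its 300 mM libraries were at 3.25, 1.94 and 0.542. The groups did not overlap, but with limma-voom on the recovered reads the adjusted p was 0.0621. Gohir.D02G071500.v2.1 in block 5 was likewise uneven at 150 mM, with 12.3, 30.2 and 8.43 FPKM, and measured 2.29, 1.72 and 1.15 at 300 mM. Its log2 difference was -2.81 ± 0.43 (limma adjusted p = 0.00663, and 0.0749 with limma-voom). Its neighbour Gohir.D02G071400.v2.1 has the same coding length, 1221 bases, and its log2 difference was -2.30.

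Block 15 held 3 of the 10 largest falls. Beside Gohir.D02G199800.v2.1, Gohir.D02G205000.v2.1 went from 62.9, 200.9 and 67.2 FPKM at 150 mM to 15.6, 13.5 and 10.7 at 300 mM, a log2 difference of -2.81 ± 0.46 (limma adjusted p = 0.00847). Gohir.D02G205600.v2.1 went from 114.8, 145.1 and 112.5 FPKM to 36.0, 20.5 and 14.6, a log2 difference of -2.46 ± 0.37 (limma adjusted p = 0.00583). In the same block, the equal-length neighbours Gohir.D02G196200.v2.1 and Gohir.D02G196300.v2.1 (984 bases each) also fell.

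The remaining large falls were Gohir.D02G170900.v2.1 in block 13 (-2.69, limma adjusted p = 0.00234) and Gohir.D02G225300.v2.1 in block 17 (-2.74, limma adjusted p = 0.00669). The latter, 333 bases long, stood at 74.0, 116.8 and 88.0 FPKM at 50 mM, 32.5, 9.501 and 36.1 at 150 mM and 3.30, 2.30 and 3.31 at 300 mM. It fell at both steps with no overlap between groups, and limma-voom gave an adjusted p of 0.102 for the second. All 10 of the largest falls kept their call when any 1 of the 9 libraries was left out.

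In each block, the called member with the largest difference was also examined. Beside the genes in the lists of largest falls and rises, those whose call held without any 1 library were Gohir.D02G142000.v2.1 in block 10, Gohir.D02G156300.v2.1 in block 11, Gohir.D02G169100.v2.1 in block 12 and Gohir.D02G235700.v2.1 in block 18, which fell. Gohir.D02G142000.v2.1 measured 108.9, 132.3 and 74.6 FPKM at 150 mM and 28.8, 17.9 and 13.1 at 300 mM (log2 difference -2.41 ± 0.30, limma adjusted p = 0.00291). Gohir.D02G235700.v2.1 measured 21.5, 34.9 and 22.1 at 150 mM and 7.35, 8.62 and 7.21 at 300 mM (-1.67 ± 0.22, limma adjusted p = 0.00331).

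In blocks 1, 7, 8 and 14 the leading call did not hold in every such fit, and neither did that of block 4, Gohir.D02G056700.v2.1, which is among the largest rises. Gohir.D02G002500.v2.1 in block 1 rose by 1.53 (limma adjusted p = 0.0337), and lost its call without any 1 library at 150 mM or the second or the third at 300 mM. Gohir.D02G099900.v2.1 in block 7 (-2.15, limma adjusted p = 0.0147) lost it without the second or the third 300 mM library, at 0.0527 and 0.0533. Gohir.D02G115600.v2.1 in block 8 (-2.08, limma adjusted p = 0.0357) was lost in 5 of the 9 fits, and Gohir.D02G189500.v2.1 in block 14 (-1.98, limma adjusted p = 0.0413) held only without the third 150 mM library. The leading gene of the block with 13 falls thus had an uneven group, at 3.81, 9.13 and 1.495 FPKM at 150 mM.

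Gohir.D02G169100.v2.1 was the middle gene of the longer run of falls. It measured 53.6, 77.3 and 51.2 FPKM at 150 mM and 16.2, 14.0 and 8.81 at 300 mM, without overlap (-2.20 ± 0.26, limma adjusted p = 0.00241). Its neighbours in the run had smaller differences, Gohir.D02G168900.v2.1 with -0.84 (limma adjusted p = 0.0474) and Gohir.D02G169200.v2.1 with -0.68 (limma adjusted p = 0.0243). The call of the former held only without the first 300 mM library, and that of the latter was lost without any 1 library at 150 mM and without the second or the third at 300 mM, with adjusted p values up to 0.158 and 0.0808.

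Gohir.D02G125200.v2.1 in block 9, a gene of 780 coding bases, had the largest fitted rise. It was at or near 0 at 50 mM (0.0685, 0.0681 and 0 FPKM), at 0.717, 0.489 and 0.0660 at 150 mM and at 6.92, 5.57 and 6.04 at 300 mM. It is one of the 17 members that passed the filter through 1 group only, here the 300 mM libraries with 108, 85 and 94 reads, so it had to differ and its values are a description. The difference was 2.92 on the log2(FPKM + 0.5) scale, which understates changes of low genes, and 4.20 when limma-voom was run on recovered reads.

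**Figure D5:**
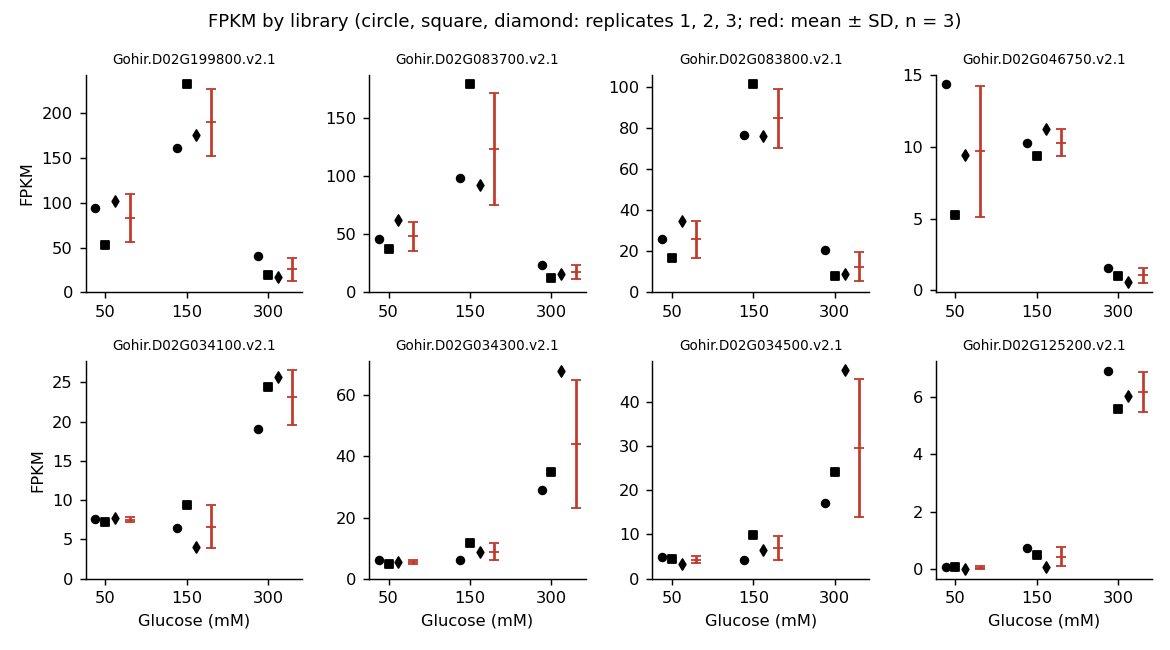
FPKM by library (vertical axis, linear and including 0) of 8 D02 genes at 50, 150 and 300 mM glucose (horizontal axis); circle, square and diamond are replicates 1, 2 and 3, and the red marks are the mean ± SD (n = 3). Gohir.D02G199800.v2.1, Gohir.D02G083700.v2.1, Gohir.D02G083800.v2.1 and Gohir.D02G046750.v2.1 are lowest at 300 mM, and Gohir.D02G034100.v2.1, Gohir.D02G034300.v2.1, Gohir.D02G034500.v2.1 and Gohir.D02G125200.v2.1 are highest there.

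Rises were gathered at the boundary of blocks 2 and 3, a neighbourhood looked at after its values were seen. Gohir.D02G034300.v2.1 measured 6.02, 4.80 and 5.55 FPKM at 50 mM, 6.10, 11.7 and 8.84 at 150 mM and 29.0, 35.0 and 68.1 at 300 mM (log2 difference 2.19 ± 0.31, limma adjusted p = 0.00441). Gohir.D02G034500.v2.1 measured 4.93, 4.42 and 3.39, then 4.31, 9.82 and 6.58, then 17.2, 24.2 and 47.0 (1.96 ± 0.36, limma adjusted p = 0.0134). In both genes the 300 mM libraries were above all others, and the third was the highest.

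Gohir.D02G034100.v2.1 in block 2 measured 7.65, 7.20 and 7.77 FPKM at 50 mM, 6.45, 9.41 and 4.02 at 150 mM and 19.1, 24.4 and 25.7 at 300 mM (1.79 ± 0.24, limma adjusted p = 0.0039). Gohir.D02G034400.v2.1, between the other two, stayed low at 1.21, 0.731 and 1.30 FPKM at 150 mM and 2.08, 3.42 and 5.29 at 300 mM (1.32, limma adjusted p = 0.0464). Its call held only without the first 300 mM or the second 50 mM library (adjusted p up to 0.14 otherwise). The call of Gohir.D02G034500.v2.1 was lost without the first 150 mM library (limma adjusted p = 0.0509). The calls of Gohir.D02G034100.v2.1 and Gohir.D02G034300.v2.1 held in all 9.

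The 2 other expressed members between these IDs, Gohir.D02G034150.v2.1 and Gohir.D02G034200.v2.1, had log2 differences of 0.62 (limma adjusted p = 0.48) and 1.02 (adjusted p = 0.104) and were not called. The 6 members have coding lengths of 633 to 711 bases. The run of 3 rises, from Gohir.D02G034300.v2.1 to Gohir.D02G034500.v2.1, has lengths of 675, 672 and 672 bases. The part that shared reads play in the rises at the start of D02 was not tested.

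The rise of Gohir.D02G223300.v2.1 in block 17, a gene of 291 bases, followed a fall. It measured 5.51, 10.03 and 6.90 FPKM at 50 mM, 2.096, 2.999 and 3.89 at 150 mM and 12.5, 23.2 and 20.3 at 300 mM, and no group overlapped with another. The log2 differences were -1.19 at the first step (limma adjusted p = 0.0123) and 2.44 ± 0.28 at the second (limma adjusted p = 0.00236).

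Rises held less well than falls when libraries were left out. Leaving aside Gohir.D02G125200.v2.1, 3 of the other 9 largest kept their call in all 9 fits: Gohir.D02G223300.v2.1, Gohir.D02G034300.v2.1 and Gohir.D02G034100.v2.1. Gohir.D02G143300.v2.1 in block 10 is an example of the others. It measured 395.0, 534.6 and 348.1 FPKM at 50 mM, 63.1, 60.8 and 35.6 at 150 mM and 83.01, 188.0 and 334.6 at 300 mM. The 300 mM libraries spread over a wide range, and the call (1.74, limma adjusted p = 0.0485) held only without the first of them.

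Gohir.D02G056700.v2.1 (2.26, limma adjusted p = 0.0266), Gohir.D02G044833.v2.1 (1.83, adjusted p = 0.0258), Gohir.D02G232150.v2.1 (1.55, adjusted p = 0.0193) and Gohir.D02G200400.v2.1 (1.55, adjusted p = 0.0388) also lost their call in some of these fits. Their adjusted p values where lost lay between 0.0539 and 0.121. The first of them depended on each 150 mM library and on the second and the third at 300 mM, with adjusted p values of 0.0576 to 0.0977 without one of these. The second depended on the first and the third 150 mM and the second and the third 300 mM libraries, and the third on the first and second 150 mM and the second 300 mM library. The call of Gohir.D02G200400.v2.1 held only without the first 300 mM or the second 50 mM library.

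Of the 5 most abundant called D02 genes, 3 fell and 2 rose, one of the rises being Gohir.D02G143300.v2.1. Gohir.D02G019800.v2.1 in block 2 measured 564.4, 656.9 and 609.7 FPKM at 50 mM, 180.1, 340.9 and 183.5 at 150 mM and 62.7, 52.4 and 82.5 at 300 mM. The 3 groups were in descending order without overlap, with log2 differences of -1.44 (limma adjusted p = 0.00281) and -1.78 ± 0.25 (limma adjusted p = 0.00456). Gohir.D02G002800.v2.1, the most abundant, had 1172, 1379 and 1196 FPKM at 50 mM, 562.9, 602.0 and 551.2 at 150 mM and 333.3, 358.5 and 438.4 at 300 mM.

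The second-step difference of Gohir.D02G002800.v2.1 was -0.61 ± 0.14 (limma adjusted p = 0.0342), and its call held only without the third 300 mM or the second 50 mM library (adjusted p up to 0.116 otherwise). Gohir.D02G085700.v2.1 in block 6 differed from both in being level between 50 and 150 mM. It had 587.1, 523.8 and 614.5 FPKM at 50 mM, 522.2, 491.5 and 587.0 at 150 mM and 315.3, 278.7 and 355.7 at 300 mM, with a second-step difference of -0.76 ± 0.14 (limma adjusted p = 0.0126, and 0.0522 without the second 300 mM library). Gohir.D02G035200.v2.1 in block 3 was the other rise, at 0.89 (limma adjusted p = 0.037), and held only without the second 150 mM or the first 300 mM library (adjusted p up to 0.128 otherwise).

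At the first step, from 50 to 150 mM, D02 ranked at the other end. There 483 members (27.8%) were called, 248 higher and 235 lower, beside a background of 29.3% (16.0% higher and 13.3% lower). This was the lowest share of the 26 chromosomes, whose others lay between 28 and 33.3%. A02 had 410 called members (31.7%) and A03 478 (30.1%). Each D02 block of 100 held between 17 and 36 called members at this step. Both steps use the same 150 mM libraries, so their results are not independent.

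Over the whole range, from 50 to 300 mM, 559 D02 members (32.2%) differed, 254 higher and 305 lower, beside a background of 32.3% (16.0% higher and 16.3% lower). D02 was in place 23 of 26. A02 had 443 called members (34.3%) and A03 552 (34.7%). With scaling to recovered reads, D02 had 367 higher and 239 lower, so the direction of the larger part over the whole range depended on the scaling.

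Most D02 genes that fell from 150 to 300 mM ended below their level at 50 mM. Of the 111, 39 (35.1%) had risen at the first step, 13 had fallen and 59 were not called there. Against 50 mM, 75 (67.6%) were lower at 300 mM, 2 were higher and 34 were not called. The same 300 mM libraries chose the 111, so low values in them favour both calls and this share follows in part from the choice. Of the 2445 falls over all genes, 39.8% had risen at the first step and 57.1% were lower at 300 than at 50 mM. The median over the 111 of the mean FPKM was 23.4 at 50 mM, 25.9 at 150 mM and 9.71 at 300 mM.

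Of the 41 rises, 4 had risen at the first step, 11 had fallen and 26 were not called. Against 50 mM, 25 (61.0%) were higher at 300 mM, 1 was lower and 15 were not called. Of the 668 rises over all genes, 11.5% had risen at the first step, 32.5% had fallen and 57.0% were higher at 300 than at 50 mM. The medians were 7.48, 4.62 and 12.7 FPKM at 50, 150 and 300 mM. The comparison with 50 mM uses the same 300 mM libraries as the one that chose these genes.

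Genes called at both steps were few. A rise followed by a fall was found in 39 D02 members (2.24%, background 1.91%), 35 on A02 (2.71%) and 31 on A03 (1.95%). On D02, a fall followed by a rise was found in 11 (0.633%, background 0.426%). Falls at both steps were found in 13 (0.748%, background 0.443%) and rises at both in 4 (0.230%, background 0.151%). In the same order, these shares were 0.310, 0.542 and 0.155% on A02 and 0.315, 0.441 and 0.378% on A03.

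Gohir.D02G206800.v2.1 in block 15 rose and then fell. It measured 1.96, 2.60 and 3.90 FPKM at 50 mM, 16.9, 17.7 and 23.1 at 150 mM and 5.56, 3.64 and 2.65 at 300 mM. The log2 difference was 2.60 at the first step and -2.19 at the second (limma adjusted p = 0.000294 and 0.00292), and the 50 and 300 mM libraries overlapped.

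Gohir.D02G066400.v2.1 fell at both steps. It measured 10.8, 11.7 and 12.4 FPKM at 50 mM, 5.13, 3.56 and 4.09 at 150 mM and 1.21, 0.861 and 1.79 at 300 mM, without overlap (-1.36 and -1.43, limma adjusted p = 0.00132 and 0.00461). Gohir.D02G089200.v2.1 in block 6 is among those that rose at both. It measured 8.18, 13.2 and 10.4 FPKM at 50 mM, 121.2, 109.0 and 114.9 at 150 mM and 326.9, 160.6 and 243.8 at 300 mM. Its first step was the larger (3.40, limma adjusted p = 0.000114), and the call of the second (1.02, limma adjusted p = 0.04) held only without the second 300 mM, the first 50 mM or the second 50 mM library (adjusted p up to 0.114 otherwise).

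Gohir.D02G122100.v2.1 rose from 44.3, 41.0 and 52.5 FPKM through 140.1, 119.1 and 125.9 to 232.0, 274.3 and 179.5, with log2 differences of 1.48 (limma adjusted p = 0.000374) and 0.81 (limma adjusted p = 0.0209). Gohir.D02G029400.v2.1 was lower, at 0, 0.345 and 0.176 FPKM at 50 mM and 4.19, 5.02 and 4.69 at 300 mM, and its second-step difference was 1.53 (limma adjusted p = 0.0195). The second-step call of the former was lost without the second or the third 150 mM or the second 300 mM library, and that of the latter without the second or the third 300 mM library, with adjusted p values between 0.0615 and 0.0766.

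The largest differences on the comparison chromosomes are given beside those on D02. Gohir.A02G081300.v2.1 went from 194.8, 259.1 and 162.3 FPKM at 150 mM to 31.0, 10.4 and 12.2 at 300 mM, a log2 difference of -3.62 ± 0.46 (limma adjusted p = 0.0031). On A03, Gohir.A03G183400.v2.1 fell by 2.96 on the log2 scale (limma adjusted p = 0.00281), and Gohir.A03G100200.v2.1 rose by 3.03 (limma adjusted p = 0.00181). On A02 the largest called rise was lower, 2.02 in Gohir.A02G103500.v2.1 (limma adjusted p = 0.0235), with the call lost in 4 of the 9 fits without 1 library. The leading fall of D02, -3.10 on the log2 scale, was of a size with those on A02 and A03. Its leading rise, 2.92, was of a size with that on A03 only. With limma-voom on the recovered reads, however, the rise of Gohir.D02G125200.v2.1 was 4.20 and that of Gohir.A03G100200.v2.1 3.32. Both genes have a coding length of 780 bases, and read sharing between them was not tested.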

How the data were processed

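Total RNA of cultured ovules was sequenced in 9 libraries. The authors deposited FPKM values for 80970 rows per library. HISAT2 and featureCounts 1.5.0-p3 are named per the submitters' processing notes, without their roles; genome build, annotation, strand setting, library-size term and treatment of shared reads were not given in the sources used here. Whole reads were recovered from the ratios of FPKM values between libraries: all 68279 rows above 0 came out whole within 0.001 reads. Of the recovered lengths of Gohir rows with at least 100 reads, 95.5% were multiples of 3, so they are called coding lengths.

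Values were tested as log2(FPKM + 0.5) with limma 3.58.1 (trend and robust settings, statmod 1.5.0, R 4.3.3), with all 9 libraries in one fit and Benjamini-Hochberg adjustment over the 50988 genes that reached 1 FPKM in at least 3 libraries; the threshold was 0.05. The procedure was checked on simulated data with 200 changed genes. No 2 libraries were identical.

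Groups came from the labelled glucose concentration. The members, blocks and lists were chosen with earlier results of these data known. Genes were named by rule: the 10 largest falls and rises without overlap, the largest difference per block, runs of 3, the 5 most abundant called, up to 3 of each both-step pattern, the extremes of A02 and A03, and the edge of the filter. Alternatives changed the pseudocount, filter, scaling, test, libraries fitted and replicate term.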

Additional observations from a re-analysis of the deposited data

How the results depend on the processing

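The calls between 300 and 150 mM were few and moved with single libraries. Leaving out 1 library in turn gave 80 to 184 calls on D02 (152 with all), 48 to 126 on A02 (90) and 61 to 155 on A03 (112). Calls over all genes moved the same way, from 3.03% without the second 300 mM library to 8.62% without the first (6.11% with all). On D02 the shares in these 2 fits were 4.60 and 10.6%. The lowest D02 count came without the second 300 mM library. Without replicates 1, 2 and 3 at 150 mM it was 90, 92 and 95 (5.18, 5.29 and 5.47%, all genes 3.35, 3.46 and 4.17%). A02 fell to 51, 49 and 59 without these 3 and to 48 without the second 300 mM library, and A03 to 69 without the first 150 mM and 61 without the second 300 mM library. Fitting only the groups compared gave 107 on D02 (6.16%) and 55 on A02 (4.26%), against 3.93% of all genes. The highest block share of D02 ranged from 9 to 20% with 1 library left out. The cause of these moves was not tested.

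With the replicate number as a block, D02 had 106 calls (6.1%, against 4.2% of all genes), 102 of them shared with the fit without it. No pairing by number was seen: correlations of same-numbered deviations ran from -0.275 to 0.102, and those of the other pairs from -0.246 to 0.237. Deviations from a mean of 3 libraries depend on each other, so this cannot exclude a pairing. The counts for 150 against 50 mM and 300 against 50 mM stayed within 1.5 times in all 21 alternatives. The median difference of D02 members moved to 0.08 with scaling to recovered reads and 0.06 with upper-quartile scaling. Of the named genes' values, 840 kept their call, 156 lost it and 0 reversed. The minimum of 30 reads, and the recovered-read scaling without the first 300 mM library, were added after seeing the data.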
